A study of Mus musculus with 10 samples.

Results

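Rgs2 and 5 related genes of G-protein signalling were followed across ventricles of mice with an alpha-tropomyosin transgene and of controls. The 6 genes were Rgs2, Rgs3, Rgs4, Rgs5, Gnaq and Gnai2, and every probe set annotated to a single gene of these was taken, which gave 16 of the 22626 probe sets and 6 of 12393 named genes. Rgs2 had 2 probe sets, Rgs3, Rgs5 and Rgs4 had 4, 4 and 3, Gnai2 had 2 and Gnaq had 1. The genes were chosen because Rgs2 had been seen to be lower in both transgenic lines on these same arrays, so the Rgs2 differences from controls are given as a description with no test.

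Ventricular RNA came from the lines alpha-TM175 (TM175 below) and alpha-TM180 (TM180) and from nontransgenic controls (NTG), with 3, 4 and 3 arrays. Each genotype had 1 array of an extract pooled from 20 hearts, which is TM175 array 3, TM180 array 4 and NTG array 3, and the other 7 arrays each carried an individual extract. The series compares hypertrophy of a mild and a severe kind, and TM175 is known as the milder line. Age, sex, strain and the promoter of the transgene are not given in the labels used here, nor is it stated whether a pool held the hearts that were also measured alone. The labels name no treatment. Values are microarray intensities on a linear scale. They depend on the probes of a set, so levels are compared between arrays and not between probe sets.

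A heterotrimeric G protein couples a cell-surface receptor to enzymes inside the cell, and its alpha subunit signals while GTP is bound. RGS proteins speed the hydrolysis of that GTP and so end the signal. In heart muscle the Gq family, to which the Gnaq product belongs, activates phospholipase C-beta and is known for its part in hypertrophy, whereas Gi proteins such as the Gnai2 product inhibit adenylyl cyclase. Rgs2 acts with preference on Gq, and mice that lack it are known to be hypertensive.

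Rgs2 was lower in every TM175 and TM180 heart extract than in NTG extracts of the same type, by both of its probe sets. The brighter set, 1419247_at, read 122 and 119 in individual extracts and 207 in the pool of TM175. It read 101, 80.3 and 89.4 in individual extracts and 219 in the pool of TM180, against 186 and 185 in individual extracts and 599 in the pool of NTG. All 5 individual transgenic extracts therefore lay below both individual NTG extracts, and both transgenic pools lay far below the NTG pool. Across extract types the ranges overlapped, because the transgenic pools were brighter than single NTG hearts.

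The dimmer Rgs2 set, 1419248_at, separated the genotypes without regard to extract type. The TM175 arrays had 91.2, 82.8 and 90.6 and the TM180 arrays 71.1, 62.3, 71.7 and 90.0, against 152, 159 and 280 in the NTG arrays. The highest of the 7 transgenic arrays was thus well under the lowest NTG array. An arrangement with all 7 transgenic arrays below all 3 NTG arrays held for 2.21% of the 22626 probe sets, and nothing is read from this share because Rgs2 was chosen on it.

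**Figure D1:**
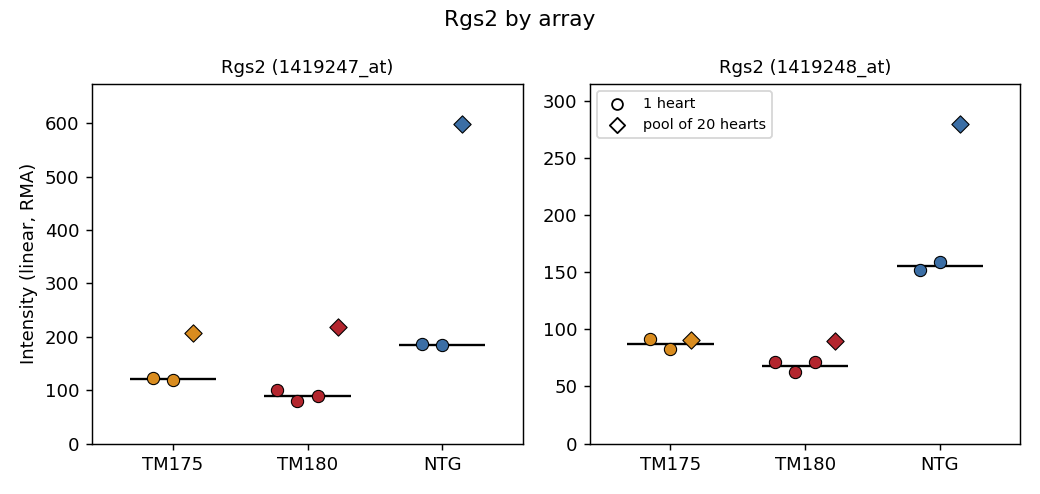
Linear intensity of the 2 Rgs2 probe sets in each array, by genotype. Circles are individual extracts, diamonds pools of 20 hearts, and bars the geometric mean of the individual extracts. In both panels the NTG points of each extract type stand above the TM175 and TM180 points of that type, and the NTG pool is highest, at 599 and 280.

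In geometric means over all arrays, 1419247_at was 1.90-fold lower in TM175 and 2.44-fold lower in TM180 than in NTG. For 1419248_at the folds were 2.14 and 2.59. The group means of 1419248_at were 88.2 ± 4.68 in TM175 (SD, n = 3) and 73.8 ± 11.6 in TM180 (SD, n = 4), against 197 ± 71.9 in NTG (SD, n = 3). The spread in NTG came from its pool, and the individual NTG extracts averaged 155 ± 4.60 (SD, n = 2). The folds were larger between pools than between individual extracts. Between individual extracts 1419247_at was 1.53-fold lower in TM175 and 2.07-fold lower in TM180, and between pools 2.89-fold and 2.73-fold lower. For 1419248_at the folds were 1.79 and 2.28 between individual extracts, and 3.09 and 3.11 between pools.

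The NTG pool weighed on the size of the Rgs2 difference. Without it the log2 difference of 1419247_at was -0.36 in TM175 and -0.73 in TM180, against -0.92 and -1.29 with all arrays. With extract type in the model the same omission gave -0.71 and -0.99, against -0.92 and -1.19. The set 1419248_at was less affected, at -0.82 in TM175 and -1.09 in TM180 without the NTG pool, against -1.10 and -1.37 with all arrays. In the 10 fits with extract type in the model and 1 array left out, the 2 sets lay between -0.69 and -1.21 in TM175 and between -0.99 and -1.43 in TM180.

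Some markers of cell types differed beside Rgs2, and in whole ventricle fewer cells of a type and less RNA per cell cannot be told apart. The 7 fibroblast markers summed to 6523 to 10085 in TM175 and 8226 to 12645 in TM180, against 4496 to 6736 in NTG, and 6 of 7 lay above NTG in TM175 and 7 of 7 in TM180. The dimmest of them averaged 193 over all arrays. The 6 cardiomyocyte markers summed to 32474 to 33307 in TM175 and 30826 to 34568 in TM180, against 33808 to 37337 in NTG. Among them the level of Actc1, the cardiac alpha-actin gene, could not be settled from the way its values were written, and it enters these sums as written, at 7.32 or more. The other 5 markers read 1160 or more in every array, and 0 of the 6 passed in either line and either model. The 6 endothelial markers summed to 1840 to 2504 in TM175 and 1980 to 2140 in TM180, against 1783 to 1905 in NTG. Of the endothelial, macrophage and lymphocyte markers 0 passed in either line and either model. In TM175 1 of the 7 fibroblast markers passed the test in either model, beside 0.0161% of all genes and 0.912% with extract type in the model. In TM180 3 passed, beside 0.573% of all genes, and 5 with extract type in the model, beside 2.3%, and the part of these differences in the Rgs2 difference was not tested. The 4 atrial markers include the hypertrophy gene Nppa. They summed to 661 to 5606 in TM175 and 6294 to 10827 in TM180, against 760.3 to 1273 in NTG. By group means Nppa made up most of these sums, and its log2 difference from NTG was 1.62 for TM175 and 3.43 for TM180. Sln, Myl7 and Myl4 differed by 0.11, 0.10 and -0.19 for TM175, so they did not share its rise. For TM180 they differed by 1.86, 1.28 and 1.74. Of the 4 markers 1 was called in TM180, and their part in the Rgs2 difference was not tested either.

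The sex-linked transcripts differed between arrays as well. Xist, made from the inactive X chromosome of females, read 988, 130 and 414 in TM175 and 105, 99.5, 111 and 394 in TM180, against 99.9, 136 and 149 in NTG. The Y-linked gene Eif2s3y read 7.23 in TM175 array 1 and 35.3 or more in all other arrays. Thus 1 individual TM175 extract had the female pattern, and the TM175 and TM180 pools read higher for Xist than the NTG pool. Without TM175 array 1 the log2 difference of Rgs2 from NTG in TM175 was -0.80 by 1419247_at and -1.13 by 1419248_at. The part of sex in the difference between pools was not tested.

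The comparison of TM180 with TM175 was not used in choosing the genes and could be tested for Rgs2. Neither probe set passed. The set 1419247_at stood at 0.776-fold in TM180 relative to TM175 (95% interval 0.390 to 1.54, limma adjusted p = 0.702), and 1419248_at at 0.830-fold (0.610 to 1.13, adjusted p = 0.537). Adding extract type gave log2 differences of -0.26 with an adjusted p of 0.273 and -0.23 with an adjusted p of 0.276. Individual extracts of TM180, at 62.3 to 71.7 for 1419248_at, all lay below those of TM175, at 82.8 and 91.2, whereas the pools read 90.0 and 90.6. The intervals leave room for a difference of either sign.

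The region around the Rgs2 start is shown because Rgs2 is the gene whose transcript differed, next to those of Rgs4 and Rgs5, which belong to the same small RGS subfamily and lie on the same chromosome. Sequences are from RefSeq on GRCm38.p6 and run 5′ to 3′ on the gene's strand, from 250 bases before to 50 after the annotated start. The Rgs2 window is chr1:144004100-144004399 on the minus strand, the Rgs4 window chr1:169747593-169747892 on the minus strand, and the Rgs5 window chr1:169655251-169655550 on the plus strand. Capitals mark 3 motifs on either strand, which are TGACG or its complement CGTCA (the core bound by CREB-type factors), CCAAT or ATTGG (the CCAAT box) and GGGCGG or CCGCCC (the GC box). No marked motif overlapped another.
Rgs2: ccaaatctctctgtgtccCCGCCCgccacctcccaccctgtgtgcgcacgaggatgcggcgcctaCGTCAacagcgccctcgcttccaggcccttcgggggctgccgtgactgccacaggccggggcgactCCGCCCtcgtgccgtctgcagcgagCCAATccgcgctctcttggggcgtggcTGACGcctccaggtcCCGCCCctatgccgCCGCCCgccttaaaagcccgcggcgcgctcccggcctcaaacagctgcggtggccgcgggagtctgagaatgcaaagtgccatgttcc
Rgs4: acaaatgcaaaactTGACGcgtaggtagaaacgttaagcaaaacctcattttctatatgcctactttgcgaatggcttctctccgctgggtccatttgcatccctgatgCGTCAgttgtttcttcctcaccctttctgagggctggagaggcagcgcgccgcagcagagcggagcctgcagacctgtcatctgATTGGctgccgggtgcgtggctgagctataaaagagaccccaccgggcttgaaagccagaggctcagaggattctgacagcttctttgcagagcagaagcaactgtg
Rgs5: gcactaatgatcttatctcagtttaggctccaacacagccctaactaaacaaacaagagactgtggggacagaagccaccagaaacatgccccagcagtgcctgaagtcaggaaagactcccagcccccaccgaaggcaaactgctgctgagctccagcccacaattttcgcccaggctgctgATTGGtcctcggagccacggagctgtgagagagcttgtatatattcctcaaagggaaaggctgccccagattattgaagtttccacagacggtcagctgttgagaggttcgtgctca

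The Rgs2 window held 2 matches to TGACG, starting 67 and 185 bases before the annotated start, 1 CCAAT box and 4 GC boxes. The Rgs4 window also held 2 matches to TGACG and 1 CCAAT box, and the Rgs5 window held 1 CCAAT box and neither of the other motifs. Of 32817 promoter windows of this length 20.8% held TGACG on either strand, 37.4% CCAAT and 35.6% GGGCGG, so each of these motifs is common. The base composition differed, with 70% G and C in the Rgs2 window, 53% in Rgs4 and 52.3% in Rgs5, beside a median of 52.7% over all windows. These matches describe the sequence and say nothing of what binds there in these hearts. Promoter windows were found for 5 of the 6 genes, and none for Gnai2. Those of Gnaq and Rgs3 are not shown. The Gnaq window held 5 GC boxes, and the Rgs3 windows held 0 and 1. None of these windows held TGACG or CCAAT.

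The remaining 14 probe sets, of Rgs3, Rgs4, Rgs5, Gnaq and Gnai2, were tested against controls in both lines. In TM175 0 of 14 passed limma's adjusted p of 0.05, where 0.00884% of all probe sets did, and 0 of 14 passed with extract type in the model, where 0.862% did. In TM180 the counts were 0 of 14 beside 0.504%, and 0 of 14 with extract type in the model beside 2%. At an unadjusted p under 0.05 the counts were also 0 of 14 in both lines, where 13% of all probe sets had such a p in TM175 and 9.35% in TM180. Their log2 differences ran from -0.24 to 0.32 in TM175 and from -0.50 to 0.28 in TM180. Both comparisons use the same NTG arrays.

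**Figure D2:**
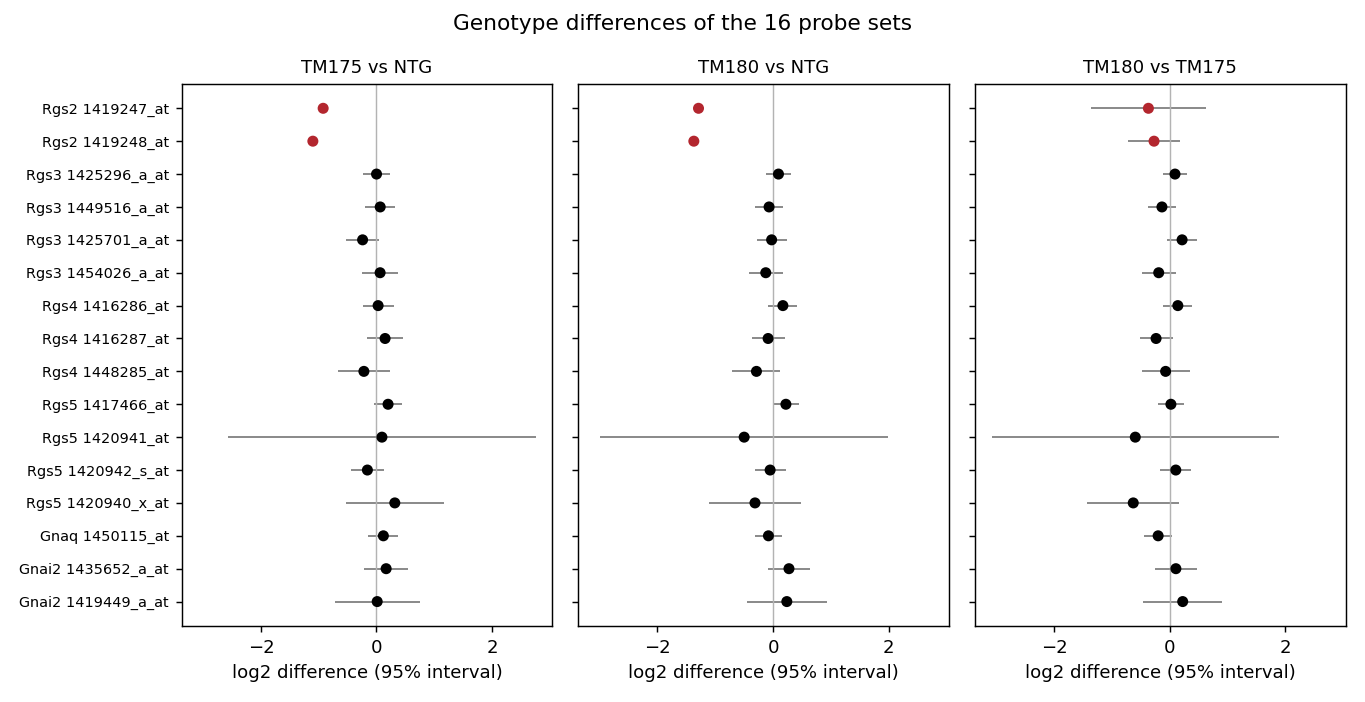
Log2 difference of each of the 16 probe sets for TM175 over NTG, TM180 over NTG and TM180 over TM175, from limma on all 10 arrays. Points are estimates and lines 95% intervals, with Rgs2 in red and without intervals where its choice used the comparison. The Rgs2 points lie at -0.92 and -1.10 in TM175 and at -1.29 and -1.37 in TM180, while the other points lie between -0.50 and 0.32 in these 2 panels.

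Rgs3, whose product acts on both Gi and Gq, was measured by 4 probe sets of which none passed the test between genotypes. The brightest, 1425296_a_at, read 231, 227 and 196 in TM175 arrays and 245, 230, 235 and 218 in TM180 arrays, against 238, 210 and 205 in NTG arrays. The groups overlapped. The fold of TM175 over NTG was 1.00 (95% interval 0.854 to 1.17, adjusted p = 0.999). That of TM180 over NTG was 1.07 (0.921 to 1.24, adjusted p = 0.943). The other Rgs3 sets had log2 differences of -0.24 to 0.06 in TM175 and of -0.13 to -0.02 in TM180. Their arrays did not rise and fall together, with correlations between pairs of Rgs3 sets of -0.50 to 0.24 over the 10 arrays, which share genotype and extract type.

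Rgs4, another regulator of Gi and Gq known from pacemaker tissue, had 3 probe sets. The brightest, 1416286_at, read 127, 118 and 145 in TM175 and 146, 142, 143 and 141 in TM180, against 123, 111 and 150 in NTG. The individual TM180 extracts stood above the individual NTG extracts, while their pool stood below the NTG pool. The fold of TM175 over NTG was 1.02 (0.846 to 1.23, adjusted p = 0.938). That of TM180 was 1.12 (0.945 to 1.34, adjusted p = 0.792). The second set, 1416287_at, read 131, 118 and 95.2 in TM175 and 105, 102, 93.4 and 87.0 in TM180, against 89.9, 112 and 107 in NTG, and its groups overlapped as well. With array weights this set passed in TM175 (log2 difference 0.32, adjusted p = 0.0417), but that fit called 5352 of 22626 probe sets.

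The third Rgs4 set, 1448285_at, was dim, at the 11.1 percentile of mean levels, and its highest values were in the NTG and TM180 pools. It read 14.9, 13.5 and 14.9 in TM175 and 13.1, 12.8, 12.5 and 17.2 in TM180, against 13.4, 14.7 and 23.9 in NTG. The NTG pool was highest here, as it was for Rgs2, and the correlation with 1419247_at over the 10 arrays was 0.92. The brighter Rgs4 sets did not share this, with correlations with 1419247_at of 0.14 for 1416286_at and -0.11 for 1416287_at. The dim set correlated with these Rgs4 sets at only 0.29 and 0.05. By the dim set TM175 differed from NTG by -0.22 on the log2 scale (adjusted p = 0.66). TM180 differed by -0.29 (adjusted p = 0.783). Between pools the log2 differences were -0.68 in TM175 and -0.48 in TM180, and between individual extracts 0.01 and -0.14.

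Rgs5, known as a gene of pericytes and vascular smooth muscle, was bright. Its set 1417466_at stood at the 98.3 percentile of mean levels and read 1808, 1799 and 2028 in TM175 and 1824, 2050, 1931 and 1822 in TM180, against 1427, 1751 and 1742 in NTG. Every TM175 and TM180 array lay above every NTG array, though by a small margin over the nearest NTG array. Taking each line alone, arrays higher without overlap occurred in 8.42% of all probe sets in TM175 and in 5.98% in TM180. Among the 14 probe sets tested this was the 1 such set in each line. The share with both lines above NTG is not given, so nothing is read from this arrangement. TM175 stood at 1.15-fold of NTG (0.972 to 1.36, adjusted p = 0.449). TM180 stood at 1.17-fold (0.998 to 1.36, adjusted p = 0.542). Neither passed once extract type was added, at an adjusted p of 0.284 in TM175 and 0.314 in TM180. The 9 pericyte and smooth muscle markers summed to 2817 to 3423 in TM175 and 2876 to 3917 in TM180, against 2890 to 3642 in NTG, so these sums overlapped. Of the 9 markers 0 passed in TM175 and 0 in TM180, and 1 passed in TM180 with extract type added, beside 2.3% of all genes. They did not move as 1, with 5 of 9 above 0 in TM175 and 7 of 9 in TM180. Abcc9 was lowest, at a log2 difference of -0.69 from NTG in each line.

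Gnaq, the Gq alpha subunit on which Rgs2 acts, was measured by 1 dim set, 1450115_at, at the 43.7 percentile of mean levels. It read 64.7, 52.5 and 68.2 in TM175 and 48.5, 55.3, 55.7 and 54.8 in TM180, against 52.7, 59.2 and 58.0 in NTG. The groups overlapped. TM175 stood at 1.09-fold of NTG (0.908 to 1.30, adjusted p = 0.68). TM180 stood at 0.946-fold (0.801 to 1.12, adjusted p = 0.977). The direct comparison of TM180 with TM175 gave 0.871 (0.737 to 1.03, adjusted p = 0.433).

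Gnai2, a Gi alpha subunit, had a wider range of values in each transgenic line than in NTG. Its bright set 1435652_a_at read 1094, 1467 and 1736 in TM175 and 1568, 1743, 1207 and 1605 in TM180, against 1321, 1206 and 1236 in NTG. The second set, 1419449_a_at, read 207, 323 and 387 in TM175 and 430, 481, 180 and 384 in TM180, against 314, 293 and 274 in NTG. Both sets put TM175 array 1 and TM180 array 3 lowest in their groups, and their log2 values correlated at 0.89 over the 10 arrays. The NTG arrays of 1435652_a_at averaged 1254 ± 59.7 (SD, n = 3), inside the range of each line, which averaged 1432 ± 322 in TM175 (SD, n = 3) and 1531 ± 229 in TM180 (SD, n = 4). By this set TM175 stood at 1.12-fold of NTG (0.859 to 1.47, adjusted p = 0.702). TM180 stood at 1.21-fold (0.942 to 1.55, adjusted p = 0.722). Whether the spreads differ between genotypes was not tested.

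**Figure D3:**
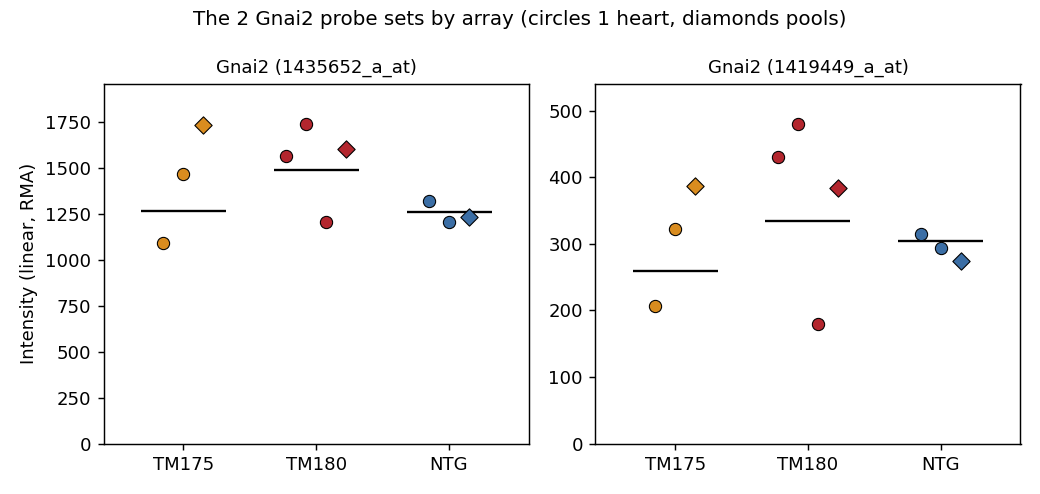
Linear intensity of the 2 Gnai2 probe sets in each array by genotype, with circles for individual extracts, diamonds for pools and bars for the geometric mean of individual extracts. The NTG points lie close together, from 1206 to 1321 and from 274 to 314, and the points of both transgenic lines spread more widely, from 1094 to 1743 and from 180.2 to 481.

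Between the lines themselves 0 of 16 probe sets passed, as did 0% of all probe sets. With extract type in the model 0 of 16 passed, beside 0.0265%. At an unadjusted p under 0.05 the count was 0 of 16, beside 13.3% of all probe sets. The log2 differences of TM180 from TM175 ran from -0.63, for the Rgs5 set 1420940_x_at, to 0.23, for the Gnai2 set 1419449_a_at. With extract type added, 1420940_x_at had an adjusted p of 0.0903 at a log2 difference of -0.55, the lowest of the 16.

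Extract type, which crosses genotype, separated several of these probe sets more sharply than genotype did. With genotype in the model 5 of 16 were higher in pooled than in individual extracts by limma and 0 were lower, beside 22.1% called over all probe sets and 10% called higher. They belonged to Rgs2, Rgs4 and Rgs5. For Rgs2 the pooled extracts were 2.38-fold brighter by 1419247_at (95% interval 1.95 to 2.92, adjusted p = 5.62e-05) and 1.35-fold by 1419248_at (1.13 to 1.62, adjusted p = 0.0242). The second call was lost without TM180 array 4 (adjusted p = 0.0935), NTG array 2 (0.0506) or NTG array 3 (0.174). The 3 pools read 207 to 599 for 1419247_at and the 7 individual extracts 80.3 to 186. The dim Rgs4 set 1448285_at was 1.34-fold brighter in pools (1.14 to 1.58, adjusted p = 0.0182), a call lost without TM180 array 4 (0.0898) or NTG array 3 (0.133).

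**Figure D4:**
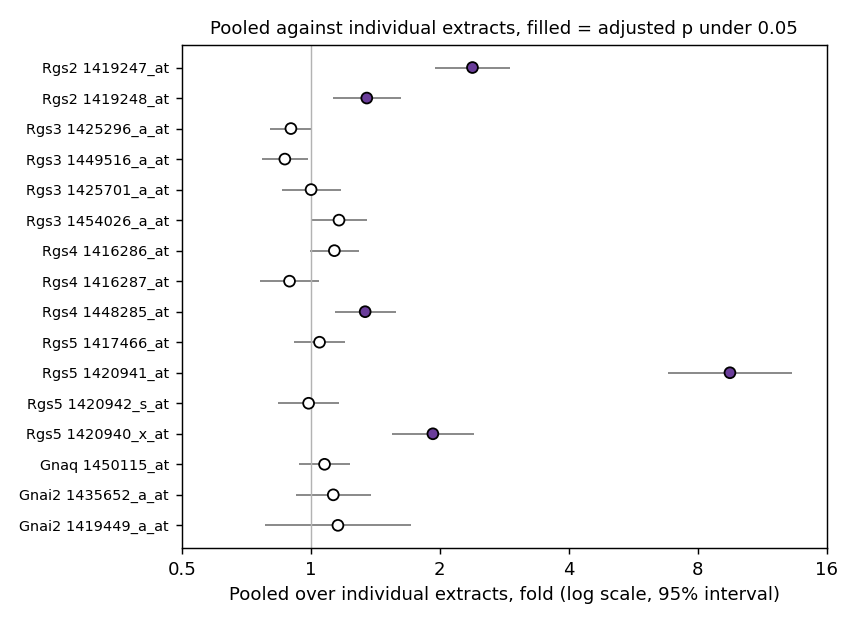
Fold of pooled over individual extracts for the 16 probe sets, with genotype in the model, on a log axis with 95% intervals. Filled points have an adjusted p under 0.05. The Rgs5 set 1420941_at stands apart at 9.50-fold, followed by the Rgs2 set 1419247_at at 2.38-fold and the Rgs5 set 1420940_x_at at 1.93-fold.

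The Rgs5 probe sets disagreed with each other over extract type. The set 1420941_at read 1135 in the TM175 pool and 911 in the TM180 pool, against 94.4 and 116 in individual TM175 extracts and 105, 111 and 52.4 in individual TM180 extracts. In NTG the pool read 814, against 137 and 91.8 in individual extracts. The pooled extracts were thus 9.50-fold brighter (6.82 to 13.2, adjusted p = 9.44e-07), a log2 difference at the 99.9 percentile of all probe sets. The set 1420940_x_at was 1.93-fold brighter in pools (1.55 to 2.40, adjusted p = 0.00099). The bright set 1417466_at was at 1.05-fold (0.916 to 1.20, adjusted p = 0.603) and 1420942_s_at at 0.989-fold (0.840 to 1.16, adjusted p = 0.93). Sets with the suffix x or s can hybridise to transcripts of other genes, so their values may not be those of Rgs5 alone.

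**Figure D5:**
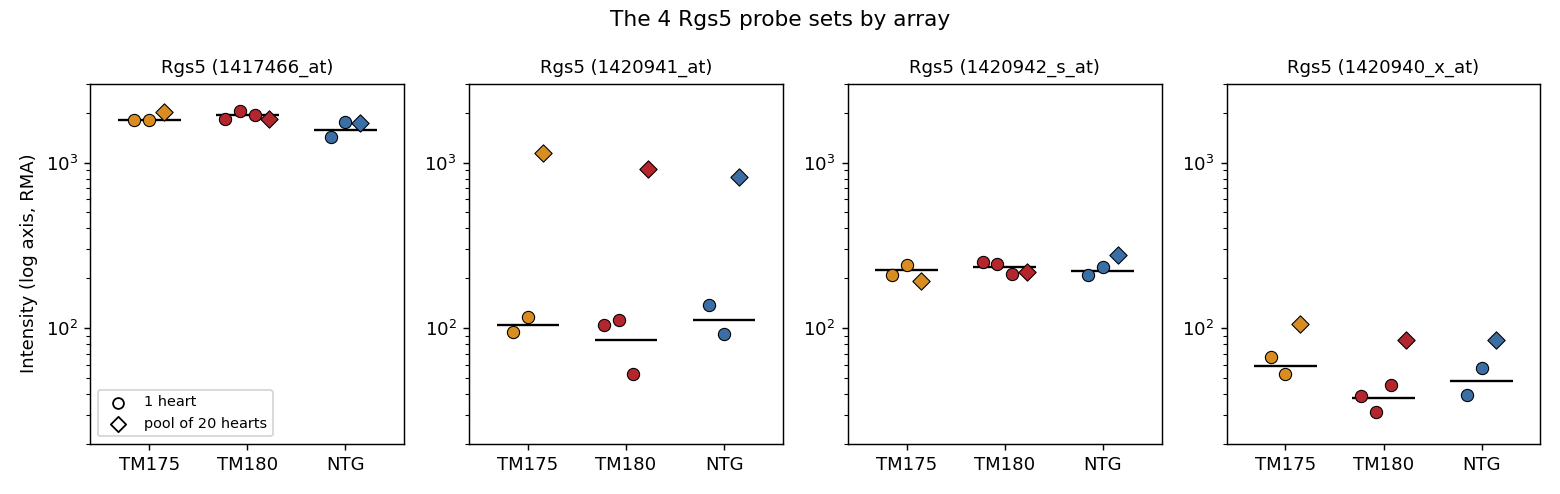
Intensity of the 4 Rgs5 probe sets in each array on a log axis, with circles for individual extracts, diamonds for pools of 20 hearts and bars for the geometric mean of individual extracts. The pools of 1420941_at, at 814 to 1135, stand apart from its individual extracts, at 52.4 to 137, in every genotype, while 1417466_at holds between 1427 and 2050 in all arrays.

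Beside these differences the pericyte and smooth muscle markers summed to 3423 to 3779 in pooled extracts and 2817 to 3917 in individual extracts. Of these 9 markers 7 lay above 0 and 1 was called higher. Over all genes 20.2% were called in either direction, and over all probe sets 10% were called higher. The dimmest of the 9 averaged 32.1, and their part in the Rgs5 values was not tested. The fibroblast markers were above 0 in 7 of 7, with 2 called higher, beside the same shares. A pool averages 20 hearts while an individual extract is 1 heart, and how the pools were otherwise handled is not given, so these cannot be told apart. The pooled over individual ratio of 1419247_at was 1.71 in TM175 and 2.44 in TM180, against 3.23 in NTG. With 1 pool per genotype these ratios have no replicate check.

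Other genes of G-protein signalling were described from 6 lists of 102 genes, of which 74 were measured by a probe set of a single gene. The brightest settled set stood for each gene. In TM175 0 of 74 passed, beside 0.0161% of all genes, and with extract type in the model 1 was lower, beside 0.912%. In TM180 2 of 74 were higher and 0 lower, beside 0.573%, and with extract type in the model 4 were higher and 1 lower, beside 2.3%. Between the lines 0 of 74 passed in either model, beside 0% and 0.0323%. The median log2 difference of the 74 genes was 0.15 in TM175, beside 0.04 over all genes, and 0.03 in TM180, beside 0.00.

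Grk5 and Adcy7 rose in TM180. Grk5, a kinase that phosphorylates active receptors, read 138, 163, 136 and 188 in TM180, against 93.5, 86.3 and 84.7 in NTG (log2 difference 0.81 ± 0.12 SE, limma adjusted p = 0.0185), and it stood between them in TM175 at 114, 113 and 122. Adcy7, an adenylyl cyclase, read 196, 275, 342 and 207 in TM180, against 130, 99.5 and 113 in NTG (1.13 ± 0.19 SE, adjusted p = 0.0364). Every TM180 array lay above every NTG array for both genes, an arrangement found in 5.98% of all probe sets. F2r, the thrombin receptor, rose with extract type in the model (0.85 ± 0.11 SE, adjusted p = 0.00374), as did Gnao1, the Go alpha subunit (0.80 ± 0.14 SE, adjusted p = 0.0141). Without extract type their adjusted p was 0.126 and 0.115. The sets of Adcy7 and F2r have the suffix s and can hybridise to transcripts of other genes.

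Gpsm1, a modulator that binds Gi alpha subunits in their GDP form, fell in both lines with extract type in the model. It read 263, 352 and 211 in TM175 and 345, 312, 289 and 216 in TM180, against 471, 432 and 385 in NTG. TM175 differed by -0.67 ± 0.13 SE on the log2 scale (adjusted p = 0.0431). TM180 differed by -0.62 ± 0.12 SE (adjusted p = 0.0197), against the same NTG arrays. Without extract type the adjusted p was 0.231 in TM175 and 0.291 in TM180. All transgenic arrays lay below all NTG arrays, as they did for the Rgs2 set 1419248_at and for 2.21% of all probe sets.

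The lists of other RGS genes and of G beta and gamma subunits held no call against NTG in either line and either model. Of 15 other RGS genes measured 0 passed, and 15 lay above 0 in TM175 and 11 in TM180. Their medians were 0.17 and 0.04, beside 0.04 and 0.003 over all genes. The share of all genes above 0 is not given, so nothing is read from these counts. Other lists leaned the same way in TM175, with 15 of 18 effectors above 0 and a median of 0.16. Their smallest p-values belonged to Rgs9 in TM175 (log2 difference 0.36, adjusted p = 0.313) and to Rgs19 in TM180, at 0.22 with an adjusted p of 0.466. Of 13 G beta and gamma subunits 0 passed, and the smallest p-value in both lines was that of Gng11 (0.31 in TM175 with an adjusted p of 0.263, 0.33 in TM180 with 0.23). Among the 8 receptors measured the smallest p-value in TM175 was that of the bradykinin receptor gene Bdkrb2 (0.21, adjusted p = 0.38), and among the 18 effectors that of Itpr3, an inositol trisphosphate receptor (0.32, adjusted p = 0.267).

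Between pooled and individual extracts 19 of the 74 genes differed, 7 higher and 12 lower, beside 20.2% of all genes. Of the 15 other RGS genes measured 0 lay above 0 in pools and 5 were called lower, where 12.1% of all probe sets were called lower. The share of all genes above 0 in pools is not given. Their median log2 difference was -0.22, beside -0.07 over all genes. Gna13, an alpha subunit of the G12 family, read 198, 294 and 242 in the TM175, TM180 and NTG pools and 45.7 to 66.4 in the individual extracts (log2 difference 2.23 ± 0.12 SE, adjusted p = 1.61e-07). Trio, a guanine nucleotide exchange factor, read 400.0, 382 and 352 in these pools and 53.1 to 98.3 in the individual extracts (2.27 ± 0.17 SE, adjusted p = 2.25e-06). For both genes every pool lay above every individual extract. The share of all probe sets with this arrangement is not given, so nothing is read from it. The Gna13 set has the suffix s, so its values may not be those of Gna13 alone.

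The genes whose pattern over the 10 arrays was most like that of the Rgs2 set 1419247_at were taken from 7332 genes above the median level. They were Acad9, an acyl-CoA dehydrogenase and complex I assembly factor (Pearson r = 0.97), Sun1, a nuclear envelope protein (0.92), Mpv17, an inner mitochondrial membrane protein (0.92), Dbt, a subunit of the branched-chain ketoacid dehydrogenase (0.92), and Txlnb (0.92). The most opposite were Rell1 (-0.96), Sart3 (-0.96), Mthfd2, a mitochondrial folate enzyme (-0.94), Rgs19 (-0.93) and Bin3 (-0.93). These correlations over 10 arrays share the difference between pooled and individual extracts and that between genotypes. All 5 alike genes were brighter in pools, by 0.18 to 1.62 on the log2 scale, and lower in both lines, and no p-value is given for them. The second Rgs2 set correlated with the first at 0.88.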

How the data were processed

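Labelled RNA of 10 ventricular extracts was hybridised to Affymetrix arrays, and the deposited values are probe set intensities made by the authors with RMA, per the submitters' processing notes, which give no version. A point stands before the last 3 digits of intensities from 1000 up. Such values keep trailing zeros while plainly written ones do not, and no value under 5.23 was written with under 3 decimals, so that 7878 values in 1061 probe sets were multiplied by 1000. No probe set held both kinds of digits. Of the tested probe sets 222 could not be settled and were kept as written. No probe set of the 6 genes was among them. Written and read again in simulation, 4 of 222980 values came out wrong.

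Of 22690 probe sets 64 controls were set aside. Gene symbols came from the platform annotation, updated through RefSeq, with 20380 probe sets of 1 gene, 691 of several and 1555 of none. Arrays had median intensities of 66.7 to 71.0 and correlated with each other at 0.964 to 0.995. The number of arrays limits the precision, and individual extracts are taken as separate hearts.

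In R 4.3.3, limma 3.58.1 was run (lmFit, eBayes) on log2 values of all 10 arrays with genotype as the factor, two-sided, with Benjamini-Hochberg adjustment over 22626 probe sets and calls under 0.05. Extract type was tested with genotype in the model. Means ± SD are of linear intensities and folds are ratios of geometric means. The procedure was tested on simulated data. Reading and plots used pandas 2.3.3 and numpy 2.4.6 with matplotlib 3.10.9 under Python 3.11.15.

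The members and lists were chosen with earlier results of these data known. All member probe sets are given. From each G-protein list up to 3 called genes per comparison are named, or the 1 with the smallest p, not all of them in the text. The 5 genes most alike and the 5 most opposite to the brightest Rgs2 set are named by Pearson correlation. Alternatives were extract type as a covariate, individual or pooled extracts alone, array weights, the replicate number as a block, renewed quantile normalization, median centring, a filter on dim sets, only the groups compared, a variance trend, an offset of 16 and leaving out each array. An interaction of genotype and extract type, added after seeing the data, rests on 1 pool per genotype and is not used.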

Additional observations from a re-analysis of the deposited data

Results flagged for a closer look

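Among the 16 probe sets, the 4 TM180 arrays were examined for a value far from the other 3. Such a value occurred in 4 probe sets. Chance gives about 1 in 20 only where the 4 arrays are alike, and array 4 is a pool. Over all probe sets 22.1% were called between extract types. The share of all probe sets with such a value is not given, so nothing is read from the count. Groups of 3 arrays were not examined. In 3 of the 4 flagged probe sets the value was that of the pool, TM180 array 4, which was highest. It read 219.1 for the Rgs2 set 1419247_at, against 80.3 to 101 in the other 3 arrays, 17.19 for the dim Rgs4 set 1448285_at, against 12.5 to 13.1, and 911.4 for the Rgs5 set 1420941_at, against 52.4 to 111. The remaining value was the lowest of Gnaq, 48.53 in TM180 array 1, against 54.8 to 55.7 in the other arrays.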

How the results depend on the processing

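The count of 0 called among the 14 probe sets of Rgs3, Rgs4, Rgs5, Gnaq and Gnai2 held in TM180 against NTG under all 30 alternatives that gave a count, and in TM175 against NTG under 29 of 30. The exception was array weights, with 1 call. Between the lines the count was 0 under all 30. In the pooled extracts alone there is 1 array per genotype and no test. For Rgs2 both sets stayed below 0 against NTG under all 31 alternatives in both lines. No support is drawn from this, because Rgs2 was chosen for being lower on these same arrays. Several alternatives, such as the replicate block, also leave its estimate unchanged. The log2 difference of 1419248_at in TM175 was -1.63 between pools, against -1.10 with all arrays, further than the spread between replicates. Leaving out 1 array at a time gave -1.26 to -0.82 for it in TM175. Of 1419247_at the smallest size was -0.36 in TM175, without the NTG pool. The count of 5 sets called between pooled and individual extracts was 3 without TM180 array 4 and 3 without NTG array 3, with a range of 3 to 5 over the arrays left out, and 7 after renewed quantile normalization, where 2 Rgs3 sets were lower in pools. The sets lost without these 2 pools were the Rgs2 set 1419248_at (adjusted p = 0.0935 and 0.174) and the dim Rgs4 set 1448285_at (0.0898 and 0.133), while 1419248_at was also lost without NTG array 2 (0.0506). The cause of these changes was not tested. The replicate numbers were not taken to pair the arrays, since deviations of arrays with the same number did not all correlate above 0.1. Between individual extracts the correlations were -0.14 to 0.44. Number 3 is a pool in TM175 and NTG (0.71) but an individual extract in TM180 (-0.51 against NTG and -0.49 against TM175), so a block on the number mixes extract types. With replicate number as a block the counts stayed at 0 in each of the 3 genotype comparisons. Over all probe sets the block gave 1 call in TM175 and 32 in TM180. The precision is limited by the number of arrays.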
